A study of Homo sapiens with 6 samples.

Results

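The collagen genes were taken as the autosomal protein-coding genes of the RefSeq gene table whose symbol reads COL, a number, A and a number, with COL7A1 and COL17A1 left out. This gave 40 of 19126 autosomal protein-coding genes: 6 basement membrane collagens, 11 fibrillar collagens and 23 of other types. The rule uses only symbol, gene type and chromosome. Regions that reached into a gene, or to within 10 kb of it, were assigned to that gene.

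Collagens are proteins of the extracellular matrix in which chains wind around each other into a triple helix. Fibrillar collagens assemble into the fibres that give dermis, bone and tendon their strength, type IV collagens form the sheet-like network of basement membranes, and fibril-associated collagens sit on the surface of fibres. In skin, keratinocytes rest on a basement membrane that they help to build, while most fibrillar collagen is made by dermal fibroblasts. FOSL2, of the FOS family, and JUNB, of the JUN family, are subunits of AP-1, a dimeric transcription factor that binds short DNA sites.

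Binding of each factor was mapped by chromatin immunoprecipitation and sequencing in HaCaT cells, an immortalised human keratinocyte line grown in DMEM with serum, using an antibody of its own for each factor. ChIPmentation, a protocol that adds sequencing adapters to the bound chromatin with a transposase, was used for the libraries, with 3 libraries for FOSL2 and 3 for JUNB. The deposited data analysed here hold 1 list of regions per factor for all of its 3 libraries, so the values carry no replicate error and library depth is unknown. Transcript levels were not measured, so neither the keratinocyte label nor the activity of any collagen gene could be checked from expression.

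On the autosomes the lists held 73751 FOSL2 and 39317 JUNB regions. A region is called shared when it overlaps one from the other list by 1 bp or more. This held for 41.4% of all FOSL2 and 78.3% of all JUNB regions. The fold enrichment of a region is the authors' own ratio of signal over background, with a median of 5.53 over all FOSL2 and 4.77 over all JUNB regions, and it is compared here only within a list. Percentages with an interval carry 95% Wilson bounds, which cover counting error only.

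A FOSL2 region lay at 37 of the 40 collagen genes (92.5%), against 77.9% of all autosomal protein-coding genes. A JUNB region lay at 28 (70.0%, against 65.4%), and a shared region at 26 (65.0%, against 54.4%). COL9A2 and COL9A3 had regions of both factors that did not touch each other. 9 genes had FOSL2 regions and no JUNB region: COL4A3, COL11A2, COL1A2, COL2A1, COL14A1, COL19A1, COL25A1, COL6A1 and COL6A2. No collagen gene had a JUNB region without a FOSL2 region. Neither factor had a region at COL6A3, COL20A1 or COL22A1. Of all 19126 genes, 1352 had regions of both factors that did not touch and 3163 had FOSL2 without JUNB. JUNB without FOSL2 was found at 765 and neither factor at 3454. Among all 1953 genes over 150 kb, 0 had JUNB without FOSL2, so its absence at collagen genes is not particular to them.

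Collagen genes are long, with a median span of 144.67 kb against 24.48 kb over all genes, and a longer gene offers more room for a region. Among the 11 collagen genes under 50 kb, 10 had a FOSL2 region, 5 a JUNB region and 3 a shared region, where all genes of that span gave 71.1%, 58.4% and 45.5%. Among the 9 of 50 to 150 kb, 8 had a FOSL2 region, 8 a JUNB region and 8 a shared one, beside 90.9%, 77.5% and 68.9% of all genes. Among the 20 over 150 kb the counts were 19, 15 and 15, beside 96.7%, 87.6% and 84.5%. The collagen shares were thus above those of like span for FOSL2 under 50 kb and for JUNB and shared regions at 50 to 150 kb. They were below for JUNB and shared regions under 50 kb, for FOSL2 at 50 to 150 kb and for all 3 over 150 kb. With 9 to 20 genes in a group, 1 gene moves a share by several percentage points. Per 100 kb of gene and flank, collagen genes held 2.62 FOSL2 and 1.30 JUNB regions, fewer than the 3.22 and 1.83 of all genes. Both densities were also lower within each of the 3 spans, by little among genes over 150 kb (FOSL2 2.55 against 2.68 and JUNB 1.15 against 1.32) and by more for JUNB under 50 kb (1.64 against 2.68) and for FOSL2 at 50 to 150 kb (2.56 against 3.57). When only the 10000 regions of highest fold in each list were kept, 16 collagen genes had a FOSL2 and 18 a JUNB region, beside 24.4% and 25.4% of all genes, a comparison not split by span.

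**Figure D1:**
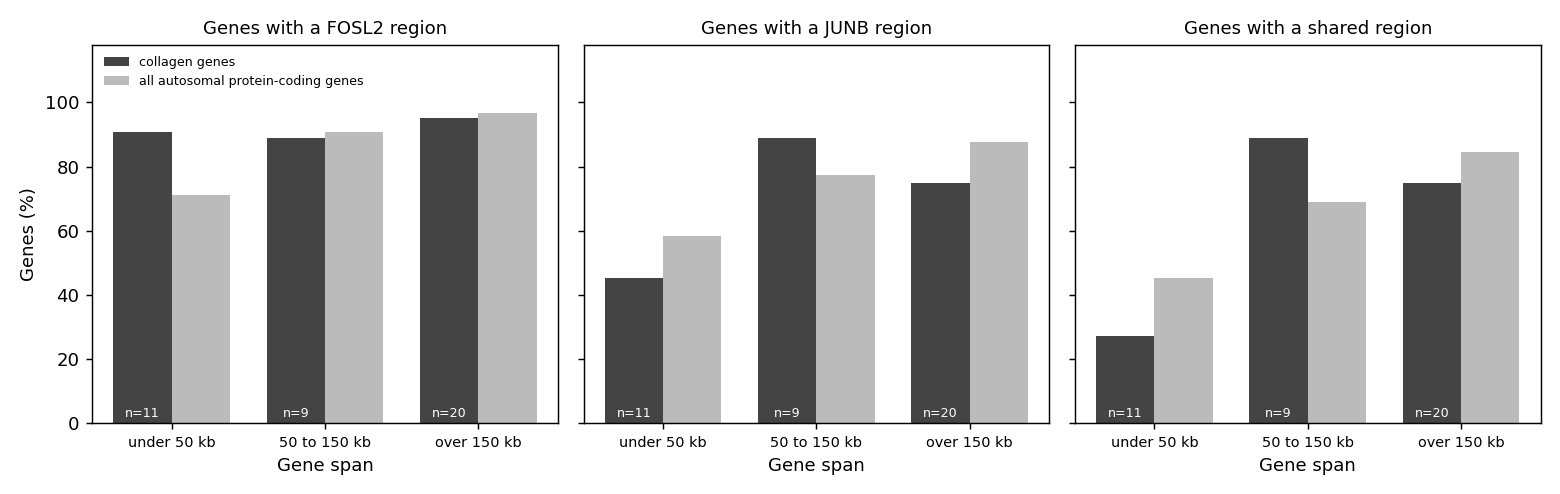
Percentage of genes (vertical axis) with a FOSL2, JUNB or shared region inside or within 10 kb, by gene span, for collagen genes (dark bars, n in each bar) and all autosomal protein-coding genes (light bars). Of the 11 collagen genes under 50 kb, 10 had a FOSL2 region but 3 a shared one, and over 150 kb the collagen share with a JUNB region (15 of 20) lies below the 87.6% of all genes.

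In all, 185 FOSL2 and 92 JUNB regions lay at collagen genes. Of the JUNB regions, 79.3% (70.0 to 86.4%) touched a FOSL2 region, near the 78.3% of the whole list, and of the FOSL2 regions 39.5% (32.7 to 46.6%) touched a JUNB region, near the 41.4% of the whole list. The median fold enrichment was 5.27 for FOSL2 (interquartile range 3.71 to 7.77) and 4.40 for JUNB (3.74 to 6.70). Shared regions had the higher values in both lists, with a median of 7.77 against 4.29 for FOSL2 and 5.07 against 3.56 for JUNB. The same order holds over the whole lists.

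Within the shared pairs, the summits of both factors, the positions of highest signal, were separated by 31 bp at the median (quartiles 11 and 62 bp), and 48 of 73 pairs had them within 50 bp. Across the 73 pairs, which share their chromatin and position, the log2 fold enrichments of FOSL2 and JUNB had a Pearson r of 0.67 and a Spearman rho of 0.69. These describe pairs of regions, not replicates. Summit gaps and correlations are not given here for the whole lists, so they are not shown to be particular to collagen genes.

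The regions were unevenly spread over the genes, with a median of 3.5 FOSL2 regions per gene (0 to 24) and 2 JUNB regions (0 to 13). COL5A2 and COL21A1 alone held 42 FOSL2 (22.7%) and 22 JUNB regions (23.9%). Across the 40 genes the FOSL2 and JUNB counts had a Pearson r of 0.90 and a Spearman rho of 0.73. Gene span had an r of 0.51 with the FOSL2 count and of 0.35 with the JUNB count. JUNB regions outnumbered FOSL2 regions at 3 genes, COL16A1, COL9A2 and COL9A3.

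**Figure D2:**
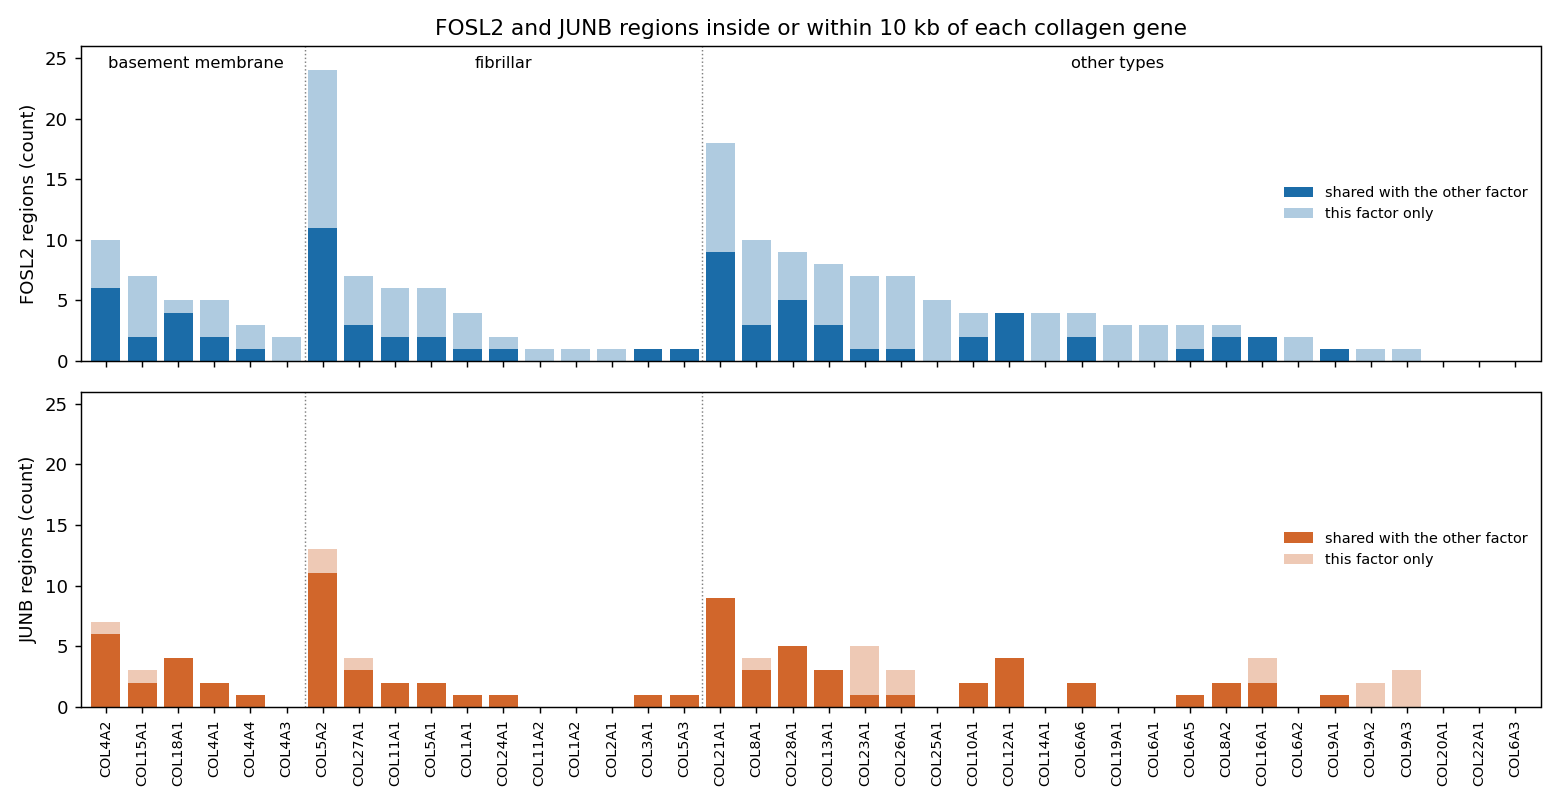
Number of FOSL2 (upper panel) and JUNB (lower panel) regions inside or within 10 kb of each of the 40 collagen genes, by class, with shared regions in the dark part of each bar. COL5A2 (24 and 13 regions) and COL21A1 (18 and 9) stand above the rest, and 3 genes at the right have none.

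RefSeq promoters of GRCh38.p14, the assembly of hg38, were used for 28 of the 40 genes, with 39 starts in all, and 3 of these 28 genes had a region over one. FOSL2 touched the window from 250 bases before to 50 after a start at COL12A1 and COL13A1, and JUNB at these and at COL27A1. The other 12 genes were not examined in this way; among them, COL6A1 (FOSL2) and COL5A2 (both factors) had a region over an end of the gene. Windows touched made up 16.6% (FOSL2) and 17.6% (JUNB) of all 33725 autosomal promoters. The bases before the start are shown because, of the 39 promoters examined, these had a region: COL12A1 at chr6:75206054-75206303 (minus strand) and COL27A1 at chr9:114155287-114155536 (plus strand), in which capitals mark 11 bases centred on the JUNB summit, and COL13A1 at chr10:69801756-69801905 (plus strand), whose summits lie just past its end.
COL12A1: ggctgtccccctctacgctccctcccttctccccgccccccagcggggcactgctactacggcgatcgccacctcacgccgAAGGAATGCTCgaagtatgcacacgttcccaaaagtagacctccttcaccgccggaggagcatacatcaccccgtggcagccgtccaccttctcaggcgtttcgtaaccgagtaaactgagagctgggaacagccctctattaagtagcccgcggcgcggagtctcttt
COL27A1: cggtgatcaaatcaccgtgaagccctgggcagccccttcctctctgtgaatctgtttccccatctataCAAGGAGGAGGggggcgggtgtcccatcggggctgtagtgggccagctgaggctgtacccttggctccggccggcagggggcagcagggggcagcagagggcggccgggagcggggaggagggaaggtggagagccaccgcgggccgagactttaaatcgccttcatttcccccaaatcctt
COL13A1: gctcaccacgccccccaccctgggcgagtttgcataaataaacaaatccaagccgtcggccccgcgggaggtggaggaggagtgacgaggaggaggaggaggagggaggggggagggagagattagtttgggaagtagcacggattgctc
At COL12A1, which encodes a fibril-associated chain of skin and tendon, the FOSL2 summit lay 150 bases and the JUNB summit 164 bases before the start, with folds of 5.26 and 5.60. The summits at COL13A1 lay 22 and 11 bases after the start (folds 4.20 and 4.02). The JUNB region at COL27A1 had a fold of 2.74 and no FOSL2 partner.

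The letters TGANTCA are a loose form of the AP-1 site in which N is any base, and they read the same on both strands. They occurred in 2707 of 35116 RefSeq promoters (7.71%) and in 1 of the 39 collagen promoters. None of the 3 promoters with a region held these letters. Among all autosomal promoters touched by a region, 16.3% (FOSL2) and 11.3% (JUNB) held them, so none among 3 says little. TGACGTCA, the longer AP-1 and CREB motif, which does not contain TGANTCA, was in none of the 39 and in 1.85% of all. The 1 collagen promoter with TGANTCA was at an inner start of COL10A1, whose chain forms the network of growing cartilage. It is shown because it holds 2 matches, in capitals and with A and T in place of N, at chr6:116158802-116158872 (minus strand). It was singled out after the match was seen.
COL10A1: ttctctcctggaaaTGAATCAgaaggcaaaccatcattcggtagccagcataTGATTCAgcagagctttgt
No region of either factor covered it. A match in these letters is a description and not a binding site.

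The summit was inside the gene for 161 of 185 FOSL2 and 80 of 92 JUNB regions (87.0% of each), and 131 and 62 summits were also more than 10 kb from both ends. Within 1 kb of an end of their collagen gene lay 9 FOSL2 and 5 JUNB summits. Counted to the end of any protein-coding gene, the share was 5.41% of FOSL2 and 6.52% of JUNB regions at collagen genes, against 11.0% and 19.4% over the windows of all genes, most of which are shorter. In the 25 genes with a listed strand and a FOSL2 summit inside, 40, 38 and 38 summits lay in the 5′, middle and 3′ stretch of the gene cut into 3 equal lengths, and the JUNB summits of 20 genes came to 25, 18 and 18. Exons and introns were not separated.

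At collagen genes 19 JUNB regions had no FOSL2 partner. Of these, 1 (5.26%, 0.935 to 24.6%) had its summit within 1 kb of an end of any protein-coding gene. Over the windows of all autosomal protein-coding genes, 37.9% of 6357 such regions did. Inner starts are not counted here: the region over the COL27A1 promoter lay 177 bases from a listed start and 1.26 kb from the gene's end. Gene length bears on this share: among genes over 150 kb it was 17.0% of 1681 regions, and 0 of 11 at collagen genes of that span, whose interval reaches 25.9%.

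The 6 basement membrane genes, with a median span of 154.18 kb, all had a FOSL2 region and 5 had a shared one. Among all genes over 150 kb the shares were 96.7% and 84.5%, and among those of 50 to 150 kb 90.9% and 68.9%. COL4A1 and COL4A2 encode the chains of the common type IV network and are read in opposite directions from starts that are 126 bases apart. The bases between the starts, chr13:110307158-110307283 on the plus strand of COL4A2, are shown because both genes use them, and 80.2% of them are G or C.
COL4A1 to COL4A2: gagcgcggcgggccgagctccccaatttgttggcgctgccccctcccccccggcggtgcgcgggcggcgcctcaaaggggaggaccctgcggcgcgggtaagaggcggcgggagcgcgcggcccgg
Neither factor had a region there: the nearest FOSL2 region was 12.2 kb away and the nearest JUNB region 12.4 kb. The strongest region of both factors at COL4A1 was 1 pair deep in the gene, 133 kb from the start, with FOSL2 at 11.6 (chr13:110173223-110174122) and JUNB at 9.13 (chr13:110173290-110173995), and summits 24 bp apart. A further pair at COL4A1 had 9.35 and 5.52.

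COL4A2 carried 10 FOSL2 and 7 JUNB regions, of which 6 were pairs. The strongest lay 75.2 kb inside, with FOSL2 at 11.5 (chr13:110381902-110382997) and JUNB at 8.22 (chr13:110382033-110382789), and summits 21 bp apart. The other 5 pairs ran from 9.32 and 7.88 down to 2.89 and 2.38. The strongest JUNB region of this class without FOSL2 was also at COL4A2, at 3.97 (chr13:110455975-110456443).

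COL18A1, whose chain is the precursor of endostatin, held 5 FOSL2 and 4 JUNB regions, and every JUNB region was paired. Its main pair had FOSL2 at 11.2 (chr21:45427294-45428582) and JUNB at 11.0 (chr21:45427339-45428160), 22.7 kb from a listed start and with summits 40 bp apart. That JUNB value exceeds 99.0% of the JUNB list, and the FOSL2 value 95.7% of the FOSL2 list. A second pair had 10.6 and 6.15.

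COL4A3 and COL4A4, whose chains belong to the type IV network of the kidney filter, also start head to head, 135 bases apart. The nearest FOSL2 region was 132 kb and the nearest JUNB region 186 kb from this interval. COL4A4 had 1 pair of 9.41 and 7.01, and COL4A3 had no JUNB region and FOSL2 at 7.19 (chr2:227297012-227297454), the strongest FOSL2 region of the class without a partner. All 4 regions at COL4A4 also lay within 10 kb of RHBDD1, so the gene they belong to cannot be told apart. COL15A1, a close relative of COL18A1, had 7 FOSL2 and 3 JUNB regions of at most 6.26 and 4.01. As a class, 15 of 17 JUNB regions and 15 of 32 FOSL2 regions were shared.

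**Figure D3:**
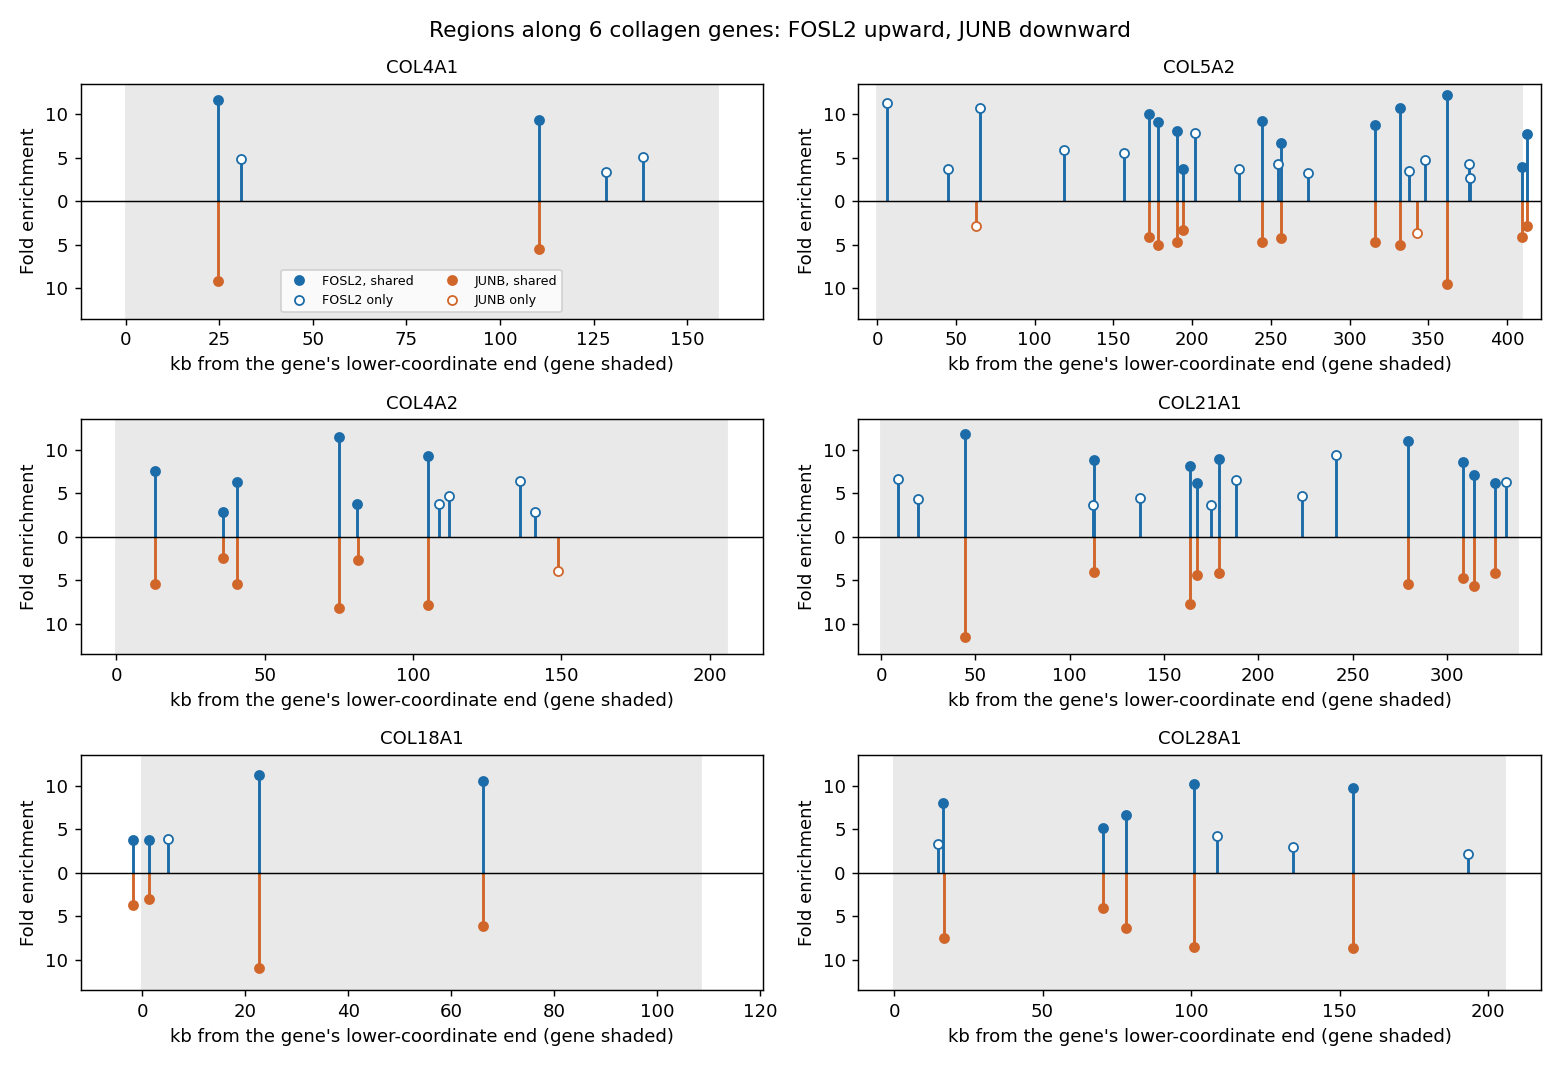
Regions along 6 collagen genes, by distance of the summit in kb from the gene's lower-coordinate end (gene shaded), with fold enrichment upward for FOSL2 and downward for JUNB. Filled markers are shared regions: all 9 JUNB regions at COL21A1 and all 5 at COL28A1 are filled, and COL4A1 carries its strongest pair (11.6 and 9.13) 24.7 kb from the end shown at the left.

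All 11 fibrillar genes (median span 50.9 kb) had a FOSL2 region and 8 had a shared one, beside 77.9% and 54.4% of all genes. All genes under 50 kb gave 71.1% and 45.5%, and those over 150 kb 96.7% and 84.5%. Without regions that also lay within 10 kb of another protein-coding gene, 9 fibrillar genes had a FOSL2 region. COL5A2, whose chain joins that of COL5A1 in the type V collagen that regulates fibre width, had the most regions of any collagen gene. Its span of 409.2 kb held 24 FOSL2 and 13 JUNB regions, 11 of them pairs. The strongest pair had FOSL2 at 12.2 (chr2:189393019-189394247) and JUNB at 9.52 (chr2:189393336-189394155), with summits 2 bp apart. COL5A2 also held the strongest fibrillar regions of each factor without the other, FOSL2 at 11.2 (chr2:189037316-189038234) and JUNB at 3.68 (chr2:189374584-189374867). Per 100 kb it had 5.59 FOSL2 and 3.03 JUNB regions, above 88.4% and 85.3% of the 1953 genes over 150 kb, whose medians were 2.70 and 1.15. Over the 20 collagen genes of that span the medians were 2.54 and 1.12, and COL4A2 had the highest JUNB density (3.10). At the upper end of COL5A2, 4 regions also lay within 10 kb of WDR75.

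COL5A1 had its strongest JUNB region close to the start, 3.0 kb inside. JUNB had 8.83 there (chr9:134644573-134645535) and FOSL2 5.73 (chr9:134644640-134645601), with summits 81 bp apart. The strongest FOSL2 region of COL5A1, 6.93, was another pair with a JUNB value of 3.74. COL5A3 had 1 pair, of 6.68 and 2.79, whose summits were 653 bp apart. Both of its regions also lay within 10 kb of RDH8.

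COL11A1, a chain of the minor cartilage fibre collagen XI, had 2 pairs. The JUNB region of 9.65 (chr1:102941145-102941981) was paired with FOSL2 at 8.15 (chr1:102941164-102942272), and its summits were 304 bp apart. The other pair had 11.2 and 8.08 with summits 15 bp apart. COL11A2 and COL2A1, whose chains join that of COL11A1, had 1 FOSL2 region each, of 7.55 and 2.55, and no JUNB region. The region of COL2A1 had its summit 9.5 kb outside the gene and also lay within 10 kb of TMEM106C.

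Among the major skin collagens, COL3A1 had a single pair with FOSL2 at 12.1 (chr2:189001862-189002591) and JUNB at 6.75 (chr2:189002093-189002466), with summits 23 bp apart. COL1A1 and COL1A2 encode the partner chains of type I collagen. COL1A1 had 4 FOSL2 regions and 1 JUNB region. Its only pair, of 8.45 and 6.68, lay 5.6 kb outside the gene and also within 10 kb of SGCA. COL1A2 had 1 FOSL2 region, of 5.89, and its nearest JUNB region was 59.0 kb away. COL24A1 had a pair of 10.9 and 5.50 in a long gene that otherwise held 1 FOSL2 region. COL27A1 had 7 FOSL2 and 4 JUNB regions, with 3 pairs. Of the fibrillar regions, 22 of 25 JUNB and 22 of 54 FOSL2 regions were shared.

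**Figure D4:**
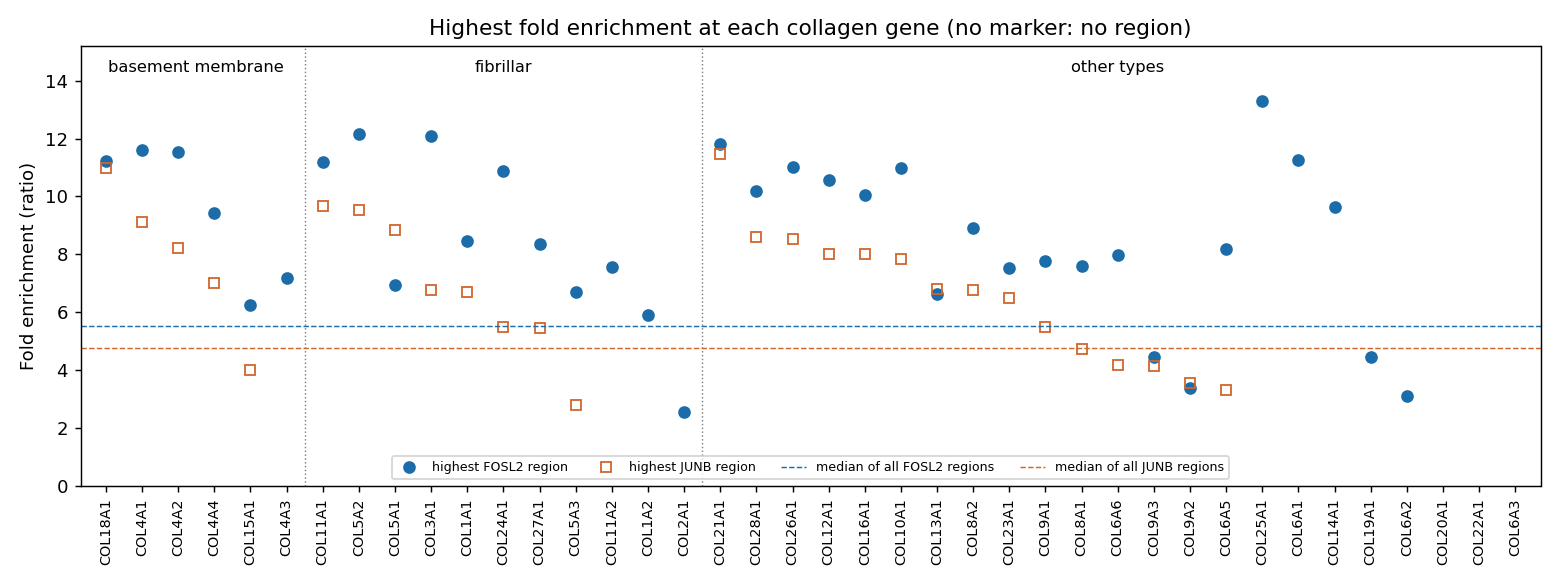
Highest fold enrichment (ratio) of a FOSL2 region (filled circles) and of a JUNB region (open squares) at each collagen gene, by class, with dashed lines at the median of each whole list (5.53 and 4.77). COL25A1 has the highest FOSL2 value, 13.3, and no JUNB region, while COL18A1 and COL21A1 have JUNB values of 11.0 and 11.5.

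Of the 23 other collagens (median span 139.18 kb), 20 had a FOSL2 region (87.0%), 15 a JUNB region (65.2%) and 13 a shared one (56.5%). All genes of 50 to 150 kb gave 90.9%, 77.5% and 68.9%, and genes of any span 77.9%, 65.4% and 54.4%. At these 23 genes 36 of 50 JUNB regions were shared (72.0%, 58.3 to 82.5%). This interval holds the 78.3% of the whole list, as do those of the basement membrane (65.7 to 96.7%) and fibrillar classes (70.0 to 95.8%). Of the 19 JUNB regions without FOSL2 at collagen genes, 14 fell in this class, which held 50 of the 92 JUNB regions. The 10 fibril-associated genes held 34 FOSL2 and 23 JUNB regions. Among them COL21A1 had 18 FOSL2 and 9 JUNB regions, and all 9 JUNB regions were paired, at JUNB values of 4.05 to 11.5. Its strongest pair had FOSL2 at 11.8 (chr6:56100583-56101802) and JUNB at 11.5 (chr6:56100735-56101661), the highest JUNB value at any collagen gene, with summits 45 bp apart. Per 100 kb it had 5.03 FOSL2 and 2.52 JUNB regions, above 83.5% and 79.6% of genes over 150 kb.

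COL12A1 was the only gene with more than 2 regions of each factor at which every region of both lists was paired. FOSL2 had 10.6, 5.49, 9.64 and 5.26 along the gene, and JUNB had 8.03, 6.92, 7.51 and 5.60 at the same positions. COL14A1, a close relative, had 4 FOSL2 regions of up to 9.65 and no JUNB region within 141 kb. COL16A1, which is found near the junction of epidermis and dermis, had 2 FOSL2 and 4 JUNB regions, and its main pair of 10.1 and 8.02 lay 2.7 to 2.8 kb from the start.

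The chains of type IX collagen, which decorate cartilage fibres, had few and mostly weak regions. COL9A1 had 1 pair, of 7.77 and 5.50, with summits 9.3 and 9.4 kb outside the gene. COL9A2 had FOSL2 at 3.39 and JUNB at up to 3.56, and COL9A3 had FOSL2 at 4.45 and JUNB at up to 4.12, with no pair at either. COL19A1 had 3 FOSL2 regions of at most 4.43.

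Of the 5 genes for the beaded filaments of type VI collagen, 4 had FOSL2 regions and 2 had JUNB regions. COL6A1, COL6A2 and COL6A3 encode the classic chains, and none of them had a JUNB region. COL6A1 had a strong FOSL2 region of 11.2 (chr21:45980900-45982146) with its summit 287 bp outside the lower-coordinate end of the gene, and the nearest JUNB region was 106 kb away. COL6A2 had 2 FOSL2 regions of at most 3.12. At COL6A3 the nearest regions were 18.5 kb (FOSL2) and 18.9 kb (JUNB) away. The alternative chains COL6A5 and COL6A6 had pairs with JUNB values of up to 3.31 and 4.17, and all 4 pair members at COL6A6 lay also within 10 kb of PIK3R4.

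The transmembrane collagens differed among themselves. COL25A1 had the highest FOSL2 value at any collagen gene, 13.3 (chr4:108954755-108955471), above 99.4% of the FOSL2 list, and its nearest JUNB region was 131 kb away. COL23A1 had 7 FOSL2 and 5 JUNB regions but 1 pair, and the strongest JUNB region without FOSL2 at a collagen gene, 6.50 (chr5:178585496-178585736), 4.75 kb from its start. COL13A1 had 8 FOSL2 and 3 JUNB regions, and its 3 JUNB regions were all paired, with the highest at 6.63 and 6.79.

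COL28A1, related to type VI collagen by its von Willebrand factor domains, had 5 pairs with JUNB values of 4.09 to 8.60. Its strongest by JUNB had FOSL2 at 9.79 (chr7:7492028-7493537) and JUNB at 8.60 (chr7:7492159-7492952), with summits 17 bp apart, and a second had 10.2 and 8.55. COL26A1 had its only pair 9.7 kb outside the gene, with FOSL2 at 11.0 (chr7:101352222-101353216) and JUNB at 8.52 (chr7:101352227-101353198). Of the short-chain network collagens, COL8A1 had 10 FOSL2 and 4 JUNB regions, COL8A2 had 3 and 2 with a pair of 8.89 and 6.75, and COL10A1 had 4 and 2 with a pair of 11.0 and 7.83. All 6 regions at COL10A1 also lay within 10 kb of NT5DC1. Both JUNB regions of COL8A2 and their FOSL2 partners had summits 8.4 to 9.9 kb outside the gene. These also lay within 10 kb of TRAPPC3.

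Of the 10% strongest regions of each whole list, 19 FOSL2 regions (fold of at least 10.1) fell at 14 collagen genes and 9 JUNB regions (at least 8.23) at 8. This is 10.3% of the collagen FOSL2 and 9.78% of the collagen JUNB regions, the share that the definition gives over a whole list. All 9 JUNB regions and 15 of the 19 FOSL2 regions were shared, beside 97.6% and 84.4% of the 10% strongest regions over the whole lists. The exceptions were the FOSL2 regions at COL25A1 and COL6A1 and 2 at COL5A2. Across the 28 genes with regions of both factors, the highest FOSL2 and highest JUNB values had a Pearson r of 0.74.

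Genes that make, sense and cut collagen were read by the same rule, beside 77.9% (FOSL2), 65.4% (JUNB) and 54.4% (shared) of all genes. Of 28 genes for collagen synthesis and processing, 27 had a FOSL2, 22 a JUNB and 19 a shared region. The highest JUNB values were at BMP1 (9.77, FOSL2 11.3), which cleaves procollagen, at P3H2 (8.45, FOSL2 11.1), a prolyl hydroxylase, at the crosslinking enzyme LOXL4 (7.83, FOSL2 10.6) and at CRTAP (7.50, FOSL2 11.6). LOX, the main crosslinking enzyme, had no region of either factor. All 7 collagen receptors had a shared region, led by ITGA1 (8.64, FOSL2 12.2) and DDR1 (8.41, FOSL2 11.1). Their median span was 105.43 kb, and a shared region lay at 68.9% of all genes of 50 to 150 kb and 84.5% of those over 150 kb. ITGA2, the integrin subunit by which keratinocytes grip collagen, had 12 FOSL2 and 11 JUNB regions. Of 6 collagen-cutting metalloproteinases, all had a FOSL2 region and 4 a shared one, with JUNB at 7.64 at MMP1 and at 6.36 at MMP2, and MMP8 and MMP9 had no JUNB region.

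For the labelled cell type, all 8 keratinocyte marker genes had a shared region, and of 9 fibroblast markers all had a FOSL2 region, 5 a JUNB region and 4 a shared one. Over all genes the shares were 77.9% (FOSL2), 65.4% (JUNB) and 54.4% (shared), and over genes under 50 kb 71.1%, 58.4% and 45.5%. The fibroblast shares of 55.6% (JUNB) and 44.4% (shared) lie near the latter. Median spans were 5.95 kb for the keratinocyte and 42.0 kb for the fibroblast markers. Strength did not follow the counts. Among markers with a region, the median highest fold was 7.19 (FOSL2) and 5.25 (JUNB) for keratinocyte and 7.37 and 5.84 for fibroblast genes. Binding regions do not show expression, and the part of cell identity in these values was not tested. Of the collagen regions, 23 of 185 FOSL2 and 14 of 92 JUNB regions lay also inside or within 10 kb of another protein-coding gene, and without them 31 genes had a FOSL2 and 22 a JUNB region.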

How the data were processed

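FOSL2 and JUNB binding was measured in HaCaT cells, 3 libraries per factor. Bowtie2, SAMtools 1.8, Picard 1.89, MACS2, deepTools and hg38 are named in the submitters' processing notes; their order, the peak caller's control and the rule combining libraries are not stated in the sources used here. A single list of narrow peaks was deposited per factor. The deposited values per region are a whole-number score, the authors' fold enrichment (a linear ratio), −log10 p (not used), −log10 q and a summit offset. The lists held 75704 and 40061 rows; autosomal regions were used. Depth per library is unknown.

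Gene spans, symbols and promoter sequences came from RefSeq GRCh38.p14 tables; strand and starts were at hand for genes in the promoter table. Overlaps were computed with Python 3.11.15, numpy 2.4.6 and pandas 2.3.3, and figures with matplotlib 3.10.9; overlap calls were tested on simulated data. Wilson intervals have 95% confidence. No test between groups was made, since genes and regions are not replicates.

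Every collagen gene is named. The 3 genes of highest JUNB fold with a shared region in each class, and the strongest region of each factor that the other lacks, are given with positions; positions of COL3A1 and COL6A1 were added after their values were seen. In other lists up to 4 genes of highest JUNB fold were named; MMP8 and MMP9 were named for having no JUNB region. Members and lists were chosen with earlier results of these data known. Alternatives changed the window, the sharing rule and the strength of regions.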

Additional observations from a re-analysis of the deposited data

How the results depend on the processing

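Each factor had 1 list for its 3 libraries. No paired analysis was possible because the replicate numbers do not appear in these lists, and leaving out each library in turn was not done for the same reason. The depth behind a missing region is unknown, so a gene without a region is not shown to be unbound.

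A gene window of 0, 5 or 50 kb, the summit in place of any base, sharing by summits within 100 bp, and the inclusion of COL7A1 and COL17A1 kept all 9 main values within 1.5 times (counts) or within their interval or spread; with 50 kb, 40 collagen genes had a FOSL2 and 33 a JUNB region, beside 93.7% and 85.4% of all genes. Counting only within 10 kb of gene ends left 54 FOSL2 and 30 JUNB regions and 14 genes with a shared region, and 66.7% of the JUNB regions touched FOSL2. In that window 30 of the 40 collagen genes had a FOSL2 and 19 a JUNB region, beside 71.5% and 57.5% of all genes. The JUNB share was thus below that of all genes, while with the full window it was above. With −log10 q of at least 10, 57 JUNB regions were left and 93.0% touched FOSL2. With a reciprocal overlap of 50% this share was 69.6%. With the 10000 regions of highest fold in each list, 16 genes had a FOSL2, 18 a JUNB and 12 a shared region; 24 FOSL2 and 25 JUNB regions were left, with medians of 11.0 and 8.02, and 58.3% and 56% touched the other factor. The end-only window, the q threshold and the 10000 strongest regions hold fewer regions by construction, while the reciprocal overlap changes only which regions count as shared.

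Chosen after seeing the data were leaving out regions near another gene (162 FOSL2 and 78 JUNB regions) and leaving out COL5A2 and COL21A1 (143 and 70); neither moved a main value past these bounds.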

Other observations

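Equal values recurred among the FOSL2 regions at collagen genes. Of 185 regions, 28 had the same fold enrichment and −log10 q as another collagen region, in 12 sets of up to 4 regions. All 28 lacked a JUNB partner, as did 112 of the 185 regions. For example, regions at COL11A2 and COL14A1 both had a fold of 7.55, and regions at COL4A3 and COL6A1 both had 7.19. Among the 92 JUNB regions, 2 had equal values, at COL24A1 and COL9A1, and both were shared. Equal values are not given here for the whole lists, so they are not shown to be particular to collagen genes. The cause was not tested.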
